A study of Mus musculus with 8 samples.

Results

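The alcohol, aldehyde and retinol dehydrogenases of the liver were compared between NASH diet–fed mice with and without myeloid FoxO1. The set was defined by name. It holds every gene of the count table whose GENCODE M21 symbol starts with Adh, Aldh, Rdh or Dhrs followed by a digit, without the 2 symbols that end as pseudogenes. This gave 52 genes of 46517, namely 6 Adh, 21 Aldh, 14 Rdh and 11 Dhrs genes. Among the Dhrs genes, Dhrs13os, which lies on the strand opposite Dhrs13, was included by its name alone. Of the 52 genes, 49 had at least 1 count in the 8 mice and 39 passed the filter on low counts and were tested, among 13278 genes tested in all.

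Livers of 8 male C57BL/6 mice were sequenced as whole tissue, 4 from MøFoxO1-KO mice (replicates 26 to 29) and 4 from WT littermates (replicates 22 to 25). MøFoxO1-KO mice carried FoxO1 loxP/loxP together with Lyz2-Cre, in which the lysozyme 2 promoter drives Cre in myeloid cells, and WT littermates carried the floxed FoxO1 alleles without Cre. Both groups were put on a NASH-inducing diet at 6 weeks of age for 25 weeks and were euthanized at 31 weeks of age after a 16-hour fast. Hepatocytes kept their FoxO1 by design, and the dehydrogenases described here are for the most part genes of the hepatocyte, so the comparison asks how their transcripts differ when FoxO1 is deleted in another cell type. In bulk tissue, fewer cells of a type and less RNA per cell cannot be told apart.

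Alcohol dehydrogenases oxidize ethanol, retinol and other alcohols to aldehydes in the cytosol, and aldehyde dehydrogenases oxidize the aldehydes further to acids. Retinol dehydrogenases are short-chain enzymes, mostly bound to the endoplasmic reticulum, that interconvert retinol and retinaldehyde, the step before retinaldehyde is oxidized irreversibly to retinoic acid. The liver holds these enzymes in large amounts, clears ingested ethanol with them and stores most of the vitamin A of the body. Other aldehyde dehydrogenases remove fatty aldehydes made by lipid oxidation or finish the breakdown of amino acids. The Dhrs genes other than Dhrs13os encode further short-chain dehydrogenases of several substrates.

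Genes of this set lie in clusters of related neighbours, and in the retinol dehydrogenase cluster on chromosome 10 fold changes of both signs were measured, none of them at an edgeR adjusted P under 0.05. Upstream sequences of 4 of these genes are shown because Rdh9 and Rdh16 were lower in MøFoxO1-KO mice and Rdh16f2 and Rdh7 were higher, each at an unadjusted P under 0.05. Each stretch holds 120 bases of GRCm38.p6 from the RefSeq promoter table, read 5′ to 3′ on the strand of the gene and ending at the base before the gene start of the count table.
Rdh9, chr10:127776266-127776385, plus strand: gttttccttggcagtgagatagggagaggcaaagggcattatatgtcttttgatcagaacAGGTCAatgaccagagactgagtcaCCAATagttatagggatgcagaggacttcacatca
Rdh16, chr10:127801032-127801151, plus strand: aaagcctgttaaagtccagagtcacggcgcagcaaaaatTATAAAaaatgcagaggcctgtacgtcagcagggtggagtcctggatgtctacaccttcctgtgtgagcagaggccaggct
Rdh16f2, chr10:127866354-127866473, plus strand: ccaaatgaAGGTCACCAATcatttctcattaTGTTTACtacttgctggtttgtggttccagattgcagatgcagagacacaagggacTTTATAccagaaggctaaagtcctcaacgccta
Rdh7, chr10:127888818-127888937, minus strand: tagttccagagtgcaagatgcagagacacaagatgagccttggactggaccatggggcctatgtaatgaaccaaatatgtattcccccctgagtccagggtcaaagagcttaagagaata
Capitals mark letters that match a searched motif on either strand. The motifs were the TATA box (TATAAA), the CCAAT box (CCAAT), a nuclear receptor motif (AGGTCA), a STAT5 motif (TTCNNNGAA), a forkhead motif (TGTTTAC), an HNF1 motif (GTTAAT), a C/EBP motif (TTGCNNAA) and an SP1 motif (GGGCGG), searched in the 250 bases before the RefSeq start site. Rdh16f2 held 1 TATA box, 1 CCAAT box, 2 nuclear receptor motifs and 1 forkhead motif. Of the nuclear receptor motifs, 1 stands side by side with the CCAAT box without sharing a base. The other lies farther upstream than the stretch shown. Rdh16 held 1 TATA box, and farther upstream than the stretch shown 1 nuclear receptor motif and 1 STAT5 motif. Rdh9 held 1 CCAAT box and 1 nuclear receptor motif, and Rdh7 had no match to any of the 8 motifs. Among 32851 promoters of the same length, 12.4% held the TATA box, 33.8% the CCAAT box, 14.0% the nuclear receptor motif, 7.02% the STAT5 motif, 3.17% the forkhead motif, 6.43% the HNF1 motif, 9.56% the C/EBP motif and 32.7% the SP1 motif. The longest run of letters common to any pair of these 4 upstream stretches was the 17 bases agatgcagagacacaag, shared by Rdh16f2 and Rdh7. The match counts describe letters and do not locate a site.

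Libraries held between 15253218 and 18025481 counts, and mitochondrial genes took 4.16 to 6.33% of them. Foxo1 itself had 395, 459, 303 and 459 normalized counts in WT replicates 22 to 25 and 429, 302, 416 and 289.9 in MøFoxO1-KO replicates 26 to 29. The groups overlapped (log2 fold change -0.17 ± 0.18 (SE), edgeR adjusted P = 0.686, exact permutation P = 0.343), so total liver RNA does not check the myeloid deletion. All 6 hepatocyte markers were expressed and had fold changes from 0.01 to 1.49 on the log2 scale with a median of 0.29, and their summed level was 977865 to 1395700 normalized counts in WT littermates and 1183240 to 1769560 in MøFoxO1-KO mice. Among them Serpina1c was higher in MøFoxO1-KO livers without overlap (log2 fold change 1.49 ± 0.24, edgeR adjusted P = 0.0370, DESeq2 adjusted P = 1.01e-07), but did not pass under 7 of the alternatives. Apoa1 was also higher without overlap (log2 fold change 1.07 ± 0.21). It did not pass in edgeR (adjusted P = 0.0765) and did in DESeq2 (adjusted P = 1.47e-05). Of 9 macrophage markers 8 were higher, 5 of them at an unadjusted P under 0.05 (against 8.65% of all genes). Timd4 had a log2 fold change of 2.08 ± 0.44 (edgeR adjusted P = 0.0968, DESeq2 adjusted P = 0.000215). The ninth, Lyz2, had a log2 fold change of -0.77 ± 0.64, but its promoter drives Cre in MøFoxO1-KO mice alone, so it may not report macrophage content here. The summed level of all 9 macrophage markers was 3441 to 5966 in WT littermates and 3961 to 15650.1 in MøFoxO1-KO mice. Stellate cell markers summed to 6370 to 12653 and 9641 to 14664, endothelial markers to 1505 to 3137 and 2346 to 3885, cholangiocyte markers to 1313 to 1728 and 983 to 1498, lymphocyte markers to 35.4 to 197 and 104 to 249, and neutrophil markers to 22.5 to 63.7 and 10.5 to 69.4 in WT and MøFoxO1-KO mice. No marker was at 0 in all mice, while the neutrophil markers Ly6g and Retnlg were at 0 in some. The part of these markers in the dehydrogenase results was not tested.

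The dehydrogenases were among the abundant transcripts of the liver. They took 1.28 to 1.56% of all counts in WT littermates (mean 1.42 ± 0.133% (SD, n = 4)) and 1.01 to 1.29% in MøFoxO1-KO mice (mean 1.14 ± 0.135% (SD, n = 4)). Levels between genes were compared per length, as TPM (counts divided by gene length and scaled to the same total in every mouse), which like the share of counts are relative to everything sequenced in a mouse. Aldh1a1, Rdh7, Adh1, Aldh2 and Aldh3a2 had the 5 highest levels and together held 71.8% of the 8705 TPM of the set. In WT littermates Aldh1a1 was at 2431 ± 667 TPM (SD, n = 4), Rdh7 at 1631 ± 84.7, Adh1 at 1617 ± 144, Aldh2 at 1188 ± 166 and Aldh3a2 at 365 ± 92.4. Rdh7 and Adh1, neighbours in this order, differed by less than their spread in WT littermates, whereas in MøFoxO1-KO mice Rdh7 was at 1609 ± 81.5 TPM, next to 1496 ± 311 for Aldh1a1 and 1108 ± 195 for Adh1. At the other end, Rdh16f1, Dhrs2 and Rdh8 had no count in any mouse, and Adh6a, Adh6b, Aldh1a2, Aldh1a3, Aldh3a1, Aldh3b2, Dhrs13os, Dhrs7c, Rdh12 and Rdh19 had too few counts to be tested. Of the exon bases of Rdh16f1, 100% are shared with Rdh1 and Rdh9 on the same strand, so its lack of counts gives no level for it.

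**Figure D1:**
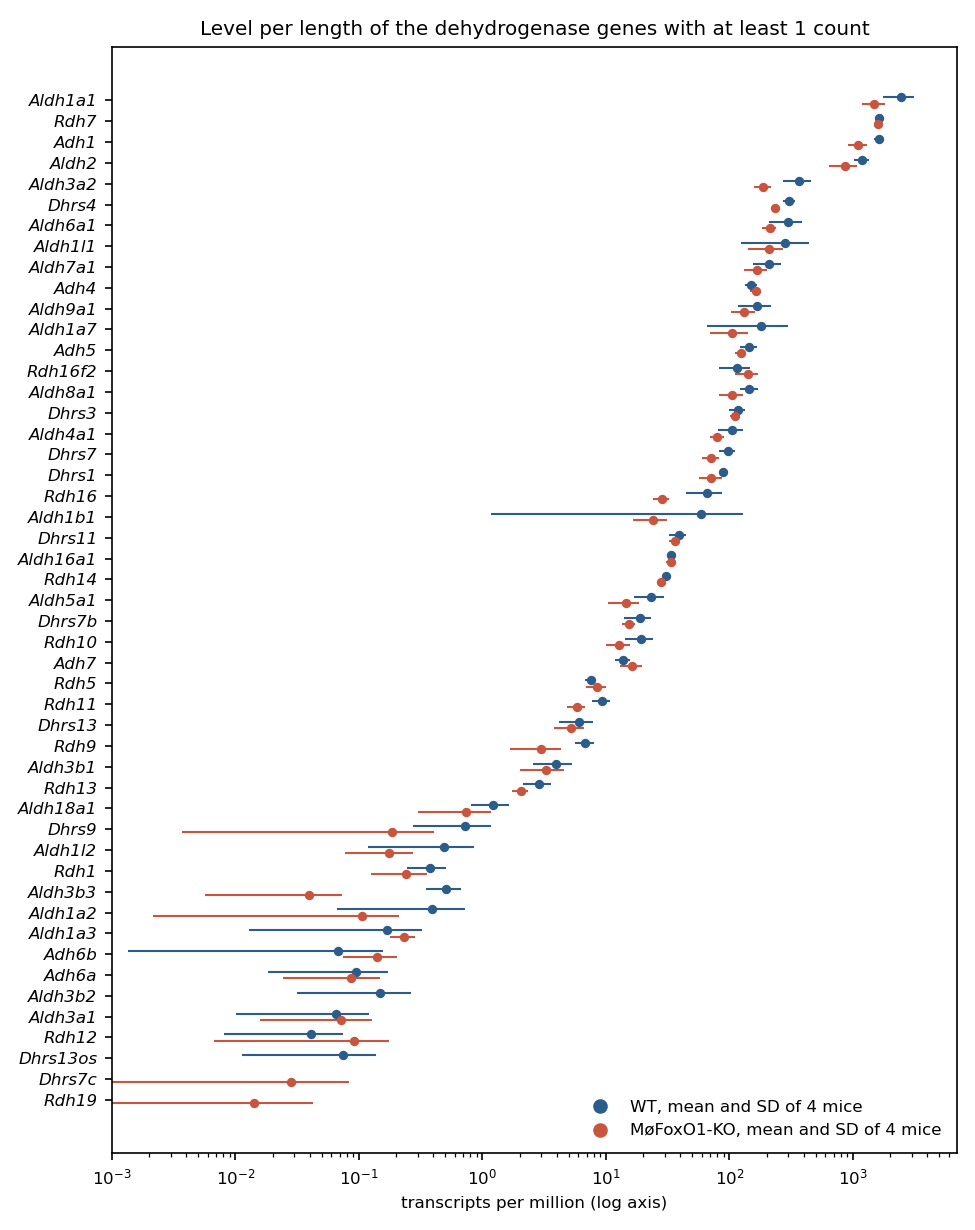
Mean level in TPM (log axis) of the 49 dehydrogenase genes with at least 1 count, in WT littermates (blue) and MøFoxO1-KO mice (red), with bars of 1 SD over 4 mice. Levels fall from 1964 TPM for Aldh1a1 to under 1 TPM for the last genes, a mean of 0 is not drawn, and a bar that would reach 0 is cut.

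No dehydrogenase passed both thresholds of the comparison (adjusted P under 0.05, log2 fold change beyond 1.5 in either direction), which 25 of 13278 genes passed (0.188%). None of the 39 tested genes had an edgeR adjusted P under 0.05 either, against 39 genes in the whole table (0.294%), whereas at an unadjusted P under 0.05 there were 10. DESeq2 gave an adjusted P under 0.05 to 4 of the 39 (10.3%), Adh4, Aldh3a2, Aldh3b3 and Rdh16, against 4.41% of all genes. At an unadjusted edgeR P under 0.05, 6 dehydrogenases were higher in MøFoxO1-KO mice (15.4%, against 8.65% of all genes), Adh4, Adh7, Aldh16a1, Rdh16f2, Rdh5 and Rdh7. At the same limit 4 were lower (10.3%, against 8.06% of all genes), Aldh3a2, Aldh3b3, Rdh16 and Rdh9. All MøFoxO1-KO mice were above all WT littermates for 2 of the 39 (5.13%, against 5.0% of all genes), Adh4 and Rdh5. All MøFoxO1-KO mice were below all WT littermates for 5 (12.8%, against 4.71%), Adh1, Aldh3a2, Aldh3b3, Rdh16 and Rdh9. Aldh3b3 reached the count limit of the filter in 4 WT littermates and in 0 MøFoxO1-KO mice, so it could enter the test only as a lower gene. Without it, 3 of 38 dehydrogenases were lower at an unadjusted P under 0.05 (7.89%, against 7.93% of the 13246 genes at the limit in mice of both groups), 4 were lower without overlap (10.5%, against 4.56%) and 3 had a DESeq2 adjusted P under 0.05 (7.89%, against 4.29%). The median log2 fold change of the 39 was -0.16, beside -0.01 for all tested genes, and it was -0.15 without Aldh3b3 and 0.0018 without WT replicate 23. With an offset for gene length the groups of Aldh3a2, Aldh3b3 and Rdh5 stayed separate and those of Adh1, Adh4, Rdh16 and Rdh9 overlapped.

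With the size factors of DESeq2 and with upper-quartile factors in edgeR, the same 6 genes were higher and the same 4 lower at an unadjusted P under 0.05. When each mouse was scaled by its total counts alone, an alternative added after seeing the data, the median of all tested genes moved from -0.01 to -0.17 on the log2 scale. Of the 6 higher genes Adh4 alone then kept an unadjusted P under 0.05 (log2 fold change 0.27, 2.56% of the 39, against 3.33% of all genes), and the other 5 stayed positive, from 0.13 for Rdh7 to 0.43 for Rdh16f2. The groups of Adh4 and of Rdh5, separate under the main scaling, then overlapped. Under total counts 9 genes were lower (23.1%, against 18.7% of all genes), the 4 above with Adh1, Aldh1a1, Aldh5a1, Rdh10 and Rdh11. Leaving out a mouse also moved the counts. Without WT replicate 22, 23 or 24 or MøFoxO1-KO replicate 26, 27 or 29, 3 genes were higher, Adh4, Adh7 and Rdh5, which is 7.5 to 7.69% of those tested, against 5.67 to 8.51% of all genes. Without WT replicate 24, 7 were lower (17.9%, against 7.85% of all genes). Relative to the median of all genes, the median of the set was -0.14 under the main scaling and -0.13 under total counts. This difference was 0.011 with 1 surrogate variable and 0.0082 without WT replicate 23, and it was negative under all other settings. In TPM, the mean was higher in MøFoxO1-KO mice for 4 of the 6 higher genes, 151 and 163 in WT and MøFoxO1-KO mice for Adh4, 13.8 and 16.3 for Adh7, 115 and 141 for Rdh16f2 and 7.52 and 8.40 for Rdh5, and it was not for Rdh7 and Aldh16a1.

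**Figure D2:**
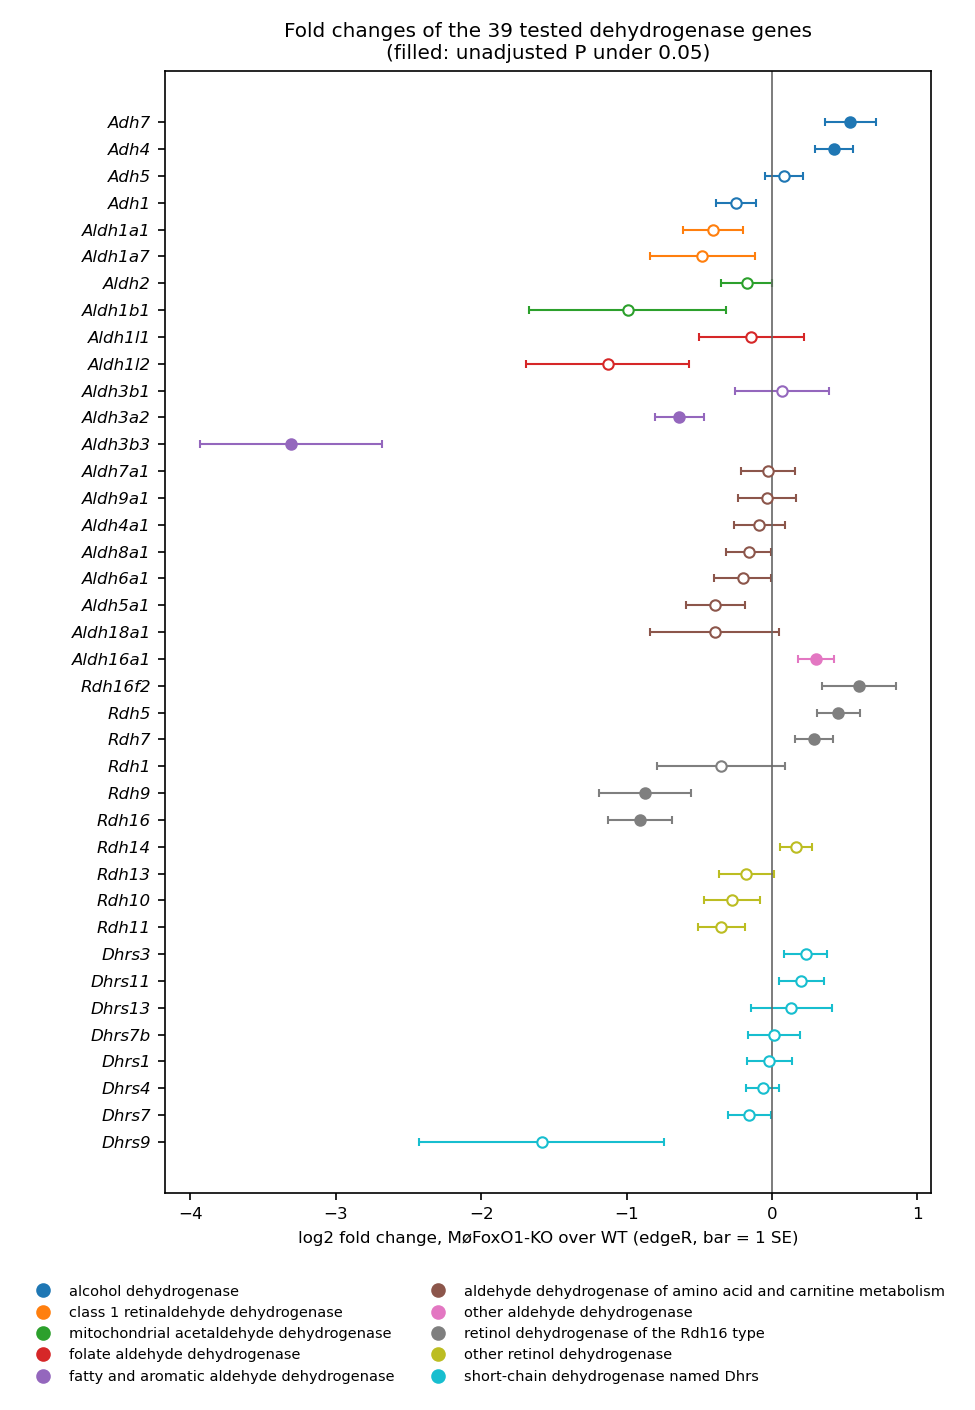
Log2 fold change of MøFoxO1-KO over WT mice (edgeR, bars of 1 SE) for the 39 tested dehydrogenase genes, grouped and coloured by role, with filled points for an unadjusted P under 0.05. Aldh3b3 stands farthest from 0 at -3.31, and the Rdh16-type group spans -0.91 for Rdh16 to 0.60 for Rdh16f2.

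The alcohol dehydrogenases lie in 1 cluster of 238 kb on chromosome 3, and 4 of the 6 were tested, 3 with positive and 1 with negative fold changes. In the values by mouse that follow, WT replicates 22 to 25 come first and MøFoxO1-KO replicates 26 to 29 second, in that order. Adh1 (ENSMUSG00000074207, chromosome 3, 138260991 to 138290698) encodes the main ethanol dehydrogenase of the liver, which also oxidizes retinol. Normalized counts of Adh1 were 32150.2, 27352, 25705 and 27099.8 in WT littermates and 25688, 22832, 25676 and 20347 in MøFoxO1-KO mice. The highest MøFoxO1-KO value lay just under the lowest WT value, so that the groups did not overlap but touched. The log2 fold change was -0.25 ± 0.14 (SE, edgeR adjusted P = 0.398, exact permutation P = 0.0286). An exact permutation P of 0.0286 is the smallest that 4 mice against 4 allow, and groups that do not overlap always give it. With the size factors of DESeq2 the groups of Adh1 overlapped. Of the exon bases of Adh1, 6.09% lie opposite another gene.

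Adh4 and Adh7 were the alcohol dehydrogenases higher at an unadjusted P under 0.05. Adh4 (ENSMUSG00000037797, chromosome 3, 138415466 to 138430892) encodes the class II enzyme, active at high ethanol concentrations and on retinol. Normalized counts of Adh4 were 1863, 1838, 1492 and 1601 in WT littermates and 2452, 2469.9, 1897 and 2306 in MøFoxO1-KO mice, so all MøFoxO1-KO mice were above all WT littermates. Adh4 was 34.3% higher (log2 fold change 0.43 ± 0.13, edgeR adjusted P = 0.171, exact permutation P = 0.0286, DESeq2 adjusted P = 0.0490). With the offset for gene length the groups of Adh4 overlapped (log2 fold change 0.25, edgeR adjusted P = 0.470), and over the alternatives fitted in edgeR its adjusted P ran from 0.0989 to 0.470. Adh7 (ENSMUSG00000055301, chromosome 3, 138217760 to 138233382) encodes the class IV enzyme, known for retinol oxidation in the stomach and other epithelia. Normalized counts of Adh7 were 404, 364, 341 and 529 in WT littermates and 467, 695, 686 and 531 in MøFoxO1-KO mice. WT replicate 25 lay within the MøFoxO1-KO values, and Adh7 had a log2 fold change of 0.54 ± 0.18 (edgeR adjusted P = 0.193, exact permutation P = 0.0571).

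Adh5, which oxidizes formaldehyde bound to glutathione, had 6036 ± 875 normalized counts in WT littermates and 6399 ± 340.3 in MøFoxO1-KO mice (SD, n = 4), with a log2 fold change of 0.08 ± 0.13 that turned to -0.06 under total counts. Adh6a and Adh6b had 16 and 33 counts over all mice. Within a mouse, the ratio of neighbouring genes does not depend on the scaling between mice. There were 0.0580 to 0.0672 Adh4 counts per Adh1 count in WT littermates and 0.0739 to 0.113 in MøFoxO1-KO mice, without overlap. Adh7 counts per Adh1 count were 0.0126 to 0.0195 and 0.0182 to 0.0304, which overlapped. These ratios combine genes chosen for their values and were not tested, and a lower level of Adh1 alone can separate them.

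Retinol dehydrogenases of the Rdh16 type gave fold changes of both signs. Of 6 tested, 3 were higher and 2 lower at an unadjusted P under 0.05 (against 8.65% and 8.06% of all genes). The group was drawn up with earlier results of these data known, so these counts are a description and not a test. Rdh1, Rdh16f1, Rdh9, Rdh16, Rdh19, Rdh16f2 and Rdh7 follow each other over 129 kb of chromosome 10, and Rdh5 lies apart on the same chromosome. Rdh16 (ENSMUSG00000069456, chromosome 10, 127801152 to 127846565) encodes a microsomal enzyme that oxidizes retinol and some steroids. Normalized counts of Rdh16 were 3303, 4434, 2019 and 2964 in WT littermates and 1827, 1457, 1515 and 1967 in MøFoxO1-KO mice. All MøFoxO1-KO values lay below the lowest WT value, that of replicate 24, and WT replicate 23 was the highest. Rdh16 was 46.8% lower (log2 fold change -0.91 ± 0.22, edgeR adjusted P = 0.119, exact permutation P = 0.0286, DESeq2 adjusted P = 0.00622). With no filter on low counts the edgeR adjusted P of Rdh16 was 0.0427, and over the alternatives fitted in edgeR it ran from 0.0427 to 0.336. With the offset for gene length the groups overlapped (edgeR adjusted P = 0.166).

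Rdh9 (ENSMUSG00000056148, chromosome 10, 127776386 to 127792697), a close relative of Rdh16, was expressed at a lower level. Normalized counts of Rdh9 were 212, 224, 146 and 179 in WT littermates and 139.9, 146, 49.3 and 80.6 in MøFoxO1-KO mice. The highest MøFoxO1-KO mouse, replicate 27, and the lowest WT mouse, replicate 24, were nearly level, and with the size factors of DESeq2 they overlapped. The log2 fold change was -0.87 ± 0.31 (edgeR adjusted P = 0.218, exact permutation P = 0.0286). Of the exon bases of Rdh9, 64.1% are also exon bases of Rdh16f1 on the same strand. Rdh16f1 had no count, so reads in the shared exons were not counted for Rdh16f1. Such reads may be missing from the counts of Rdh9 too, so the value of Rdh9 is uncertain and may be understated. Of the 50-base transcript windows of Rdh9, 68.3% occur in a transcript of another gene, against 14.0% for Rdh16, 12.9% for Rdh7 and 10.0% for Rdh16f2. Rdh16 also shares 6.13% of its exon bases with the pseudogene Rdh18-ps.

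Farther along the cluster 2 genes had positive fold changes. Rdh16f2 (ENSMUSG00000074639, chromosome 10, 127866474 to 127877317) is another gene of the Rdh16 family. Normalized counts of Rdh16f2 were 998, 832, 1053 and 1699 in WT littermates and 1622, 1937, 1142 and 2234 in MøFoxO1-KO mice. The groups overlapped, through WT replicate 25 and MøFoxO1-KO replicate 28, and the log2 fold change was 0.60 ± 0.25 (edgeR adjusted P = 0.273, exact permutation P = 0.0857). Rdh7 (ENSMUSG00000040134, chromosome 10, 127884028 to 127888817) encodes the most abundant retinol dehydrogenase of these livers, known to act on retinol and on hydroxysteroids. Normalized counts of Rdh7 were 21587, 19279.5, 20291 and 24111 in WT littermates and 25999.9, 28466, 24047 and 25571 in MøFoxO1-KO mice. WT replicate 25 reached just past MøFoxO1-KO replicate 28, and the log2 fold change was 0.29 ± 0.13 (edgeR adjusted P = 0.294, exact permutation P = 0.0571). Per length Rdh7 was at 1631 TPM in WT littermates and 1609 in MøFoxO1-KO mice, so the means had the opposite order on that scale. Neither Rdh16f2 nor Rdh7 kept an unadjusted P under 0.05 without WT replicate 22, 23 or 24 or MøFoxO1-KO replicate 26, 27 or 29, with 1 surrogate variable, with the length offset or under total counts, and Rdh7 did not with no filter or the robust fit either.

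Within a mouse, Rdh7 counts per Rdh16 count were 4.35 to 10.0 in WT littermates and 13.0 to 19.5 in MøFoxO1-KO mice. Rdh16 counts per Rdh9 count, the ratio of the pair with negative fold changes, were 13.8 to 19.8 and 10.0 to 30.7 and overlapped. A lower level of Rdh16 alone can separate the first ratio, so it gives no direction for Rdh7, and ratios of genes chosen for their values were not tested.

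**Figure D3:**
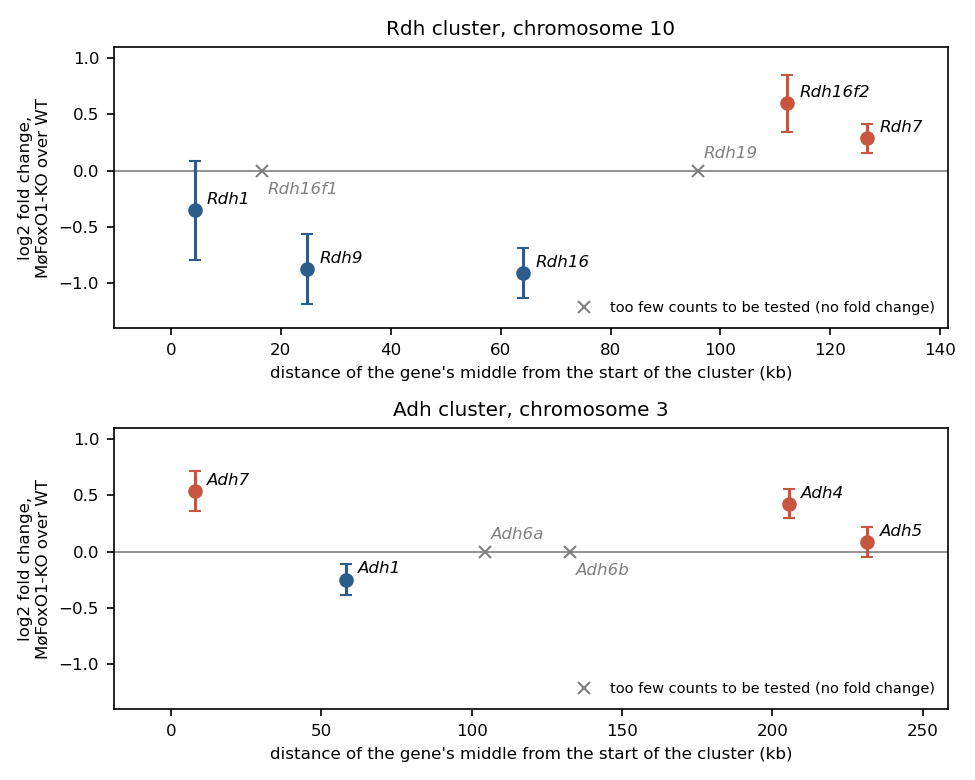
Log2 fold change of MøFoxO1-KO over WT mice (edgeR, bars of 1 SE, blue for lower and red for higher) against the distance of each gene's middle from the start of its cluster in kb, for the Rdh cluster of chromosome 10 and the Adh cluster of chromosome 3. Rdh9 and Rdh16 lie below 0 and Rdh16f2 and Rdh7 above it, Adh7 and Adh4 lie above 0 and Adh1 below it, and crosses mark genes with too few counts to be tested.

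Rdh5 (ENSMUSG00000025350, chromosome 10, 128913593 to 128922888), known as the 11-cis retinol dehydrogenase of the retinal pigment epithelium, was a gene of low level in these livers. Normalized counts of Rdh5 were 168, 181, 135 and 174 in WT littermates and 252, 189, 238 and 223 in MøFoxO1-KO mice. All MøFoxO1-KO mice were above all WT littermates, with a log2 fold change of 0.46 ± 0.15 (edgeR adjusted P = 0.190, exact permutation P = 0.0286). Of the exon bases of Rdh5, 25.6% are shared with Bloc1s1 on the same strand. Part of its reads therefore cannot be assigned with certainty and may be missing from its counts. Rdh1 had 83 counts over all mice and a log2 fold change of -0.35 ± 0.44, and Rdh19 had 1 count.

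The other retinol dehydrogenases showed no difference at an unadjusted P under 0.05. Rdh10, which makes retinaldehyde from retinol, had 620.3 ± 155 normalized counts in WT littermates and 513 ± 90.1 in MøFoxO1-KO mice (log2 fold change -0.27 ± 0.19). Rdh11, Rdh13 and Rdh14 are known for the reverse step, the reduction of retinaldehyde. Rdh11 had 247 ± 30.6 and 194 ± 33.8 normalized counts (log2 fold change -0.35 ± 0.16, edgeR adjusted P = 0.316, exact permutation P = 0.0571), while Rdh13 and Rdh14 had log2 fold changes of -0.18 ± 0.19 and 0.17 ± 0.11. Rdh12 and Rdh8, genes of the retina, had few counts and none.

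Retinaldehyde dehydrogenases make retinoic acid, and Aldh1a1 was by far the most abundant of them. Normalized counts of Aldh1a1 (ENSMUSG00000053279, chromosome 19, 20601961 to 20643462) were 41181, 51351, 25890.4 and 36988 in WT littermates and 34914, 24265, 29479.5 and 28624 in MøFoxO1-KO mice. WT littermates were spread widely, from replicate 24, near the lowest MøFoxO1-KO mouse, to replicate 23, and the groups overlapped. The log2 fold change was -0.41 ± 0.21 (edgeR adjusted P = 0.365, exact permutation P = 0.171). Aldh1a7, a rodent neighbour of Aldh1a1 that shares 7.49% of its 50-base windows with other transcripts, had 2895 ± 1769.5 and 2077 ± 584 normalized counts, and its log2 fold change of -0.48 became 0.04 without WT replicate 23. Aldh1a2 and Aldh1a3 had too few counts to be tested, with 7.08 ± 6.32 and 2.27 ± 2.17 normalized counts for Aldh1a2 and 5.91 ± 5.10 and 10.3 ± 2.49 for Aldh1a3.

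Aldh2, the mitochondrial enzyme that clears acetaldehyde, had overlapping values. Normalized counts of Aldh2 (ENSMUSG00000029455, chromosome 5, 121566027 to 121593824) were 53983, 51926, 39585 and 43801 in WT littermates and 50656, 34197, 46916 and 36065 in MøFoxO1-KO mice. The ranges of the 2 groups overlapped over most of their length, and the log2 fold change was -0.17 ± 0.18 (edgeR adjusted P = 0.666, exact permutation P = 0.314). Aldh1b1, a related mitochondrial enzyme shown by mouse after its values were seen, had 926, 2847, 254 and 273 counts in WT littermates and 726, 307, 559 and 446 in MøFoxO1-KO mice. WT replicate 23 stood far above all others, and without it the log2 fold change of -0.99 became 0.19.

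Of 17 tested Aldh genes 15 had negative fold changes (14 with upper-quartile factors, 16 under total counts, 8 with 1 surrogate variable and 8 of 18 without WT replicate 23). At an unadjusted P under 0.05, 2 of the 17 were lower (against 8.06% of all genes), Aldh3a2 and Aldh3b3, both enzymes of fatty and aromatic aldehydes. Aldh3a2 (ENSMUSG00000010025, chromosome 11, 61223417 to 61267464) encodes the fatty aldehyde dehydrogenase of the endoplasmic reticulum, which turns long-chain aldehydes into fatty acids and whose loss causes Sjögren-Larsson syndrome. Normalized counts of Aldh3a2 were 14593, 15486, 20022 and 13051 in WT littermates and 8399, 11309, 11406 and 9481 in MøFoxO1-KO mice. The groups were separate, with WT replicate 24 the highest. Aldh3a2 was 35.7% lower (log2 fold change -0.64 ± 0.17, edgeR adjusted P = 0.131, exact permutation P = 0.0286, DESeq2 adjusted P = 0.0123). Its exons overlap no other gene and none of its 50-base windows occurs in another transcript. The neighbouring Aldh3a1, known from cornea and stomach, had 9 counts over all mice.

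Aldh3b3 (ENSMUSG00000037263, chromosome 19, 3958645 to 3972103) had the fold change farthest from 0 of the 39 tested genes, on few counts, and it passed the filter through its WT values alone. The Aldh3b enzymes act on lipid-derived aldehydes. Counts of Aldh3b3 were 27, 13, 14 and 16 in WT littermates and 0, 1, 2 and 3 in MøFoxO1-KO mice. All MøFoxO1-KO mice had 3 counts or fewer, and the groups did not overlap. The log2 fold change was -3.31 ± 0.63 (edgeR adjusted P = 0.0695, exact permutation P = 0.0286), the DESeq2 adjusted P was 0.00205, and the edgeR adjusted P with no filter on low counts was 0.0314. Over the alternatives fitted in edgeR its adjusted P ran from 0.0314 to 0.261, and with at least 10 counts required in each mouse it was not tested. The next gene on chromosome 19, Aldh3b2, had 2, 4, 4 and 0 counts in WT littermates and none in MøFoxO1-KO mice, too few to be tested. Of the 50-base windows of Aldh3b3, 12.8% occur in other transcripts, most of them in Aldh3b2, so the 2 are not independent. Aldh3b1, in the same cluster, had 56.9 ± 16.3 and 59.8 ± 25.4 normalized counts (log2 fold change 0.07 ± 0.32, -0.10 under total counts).

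**Figure D4:**
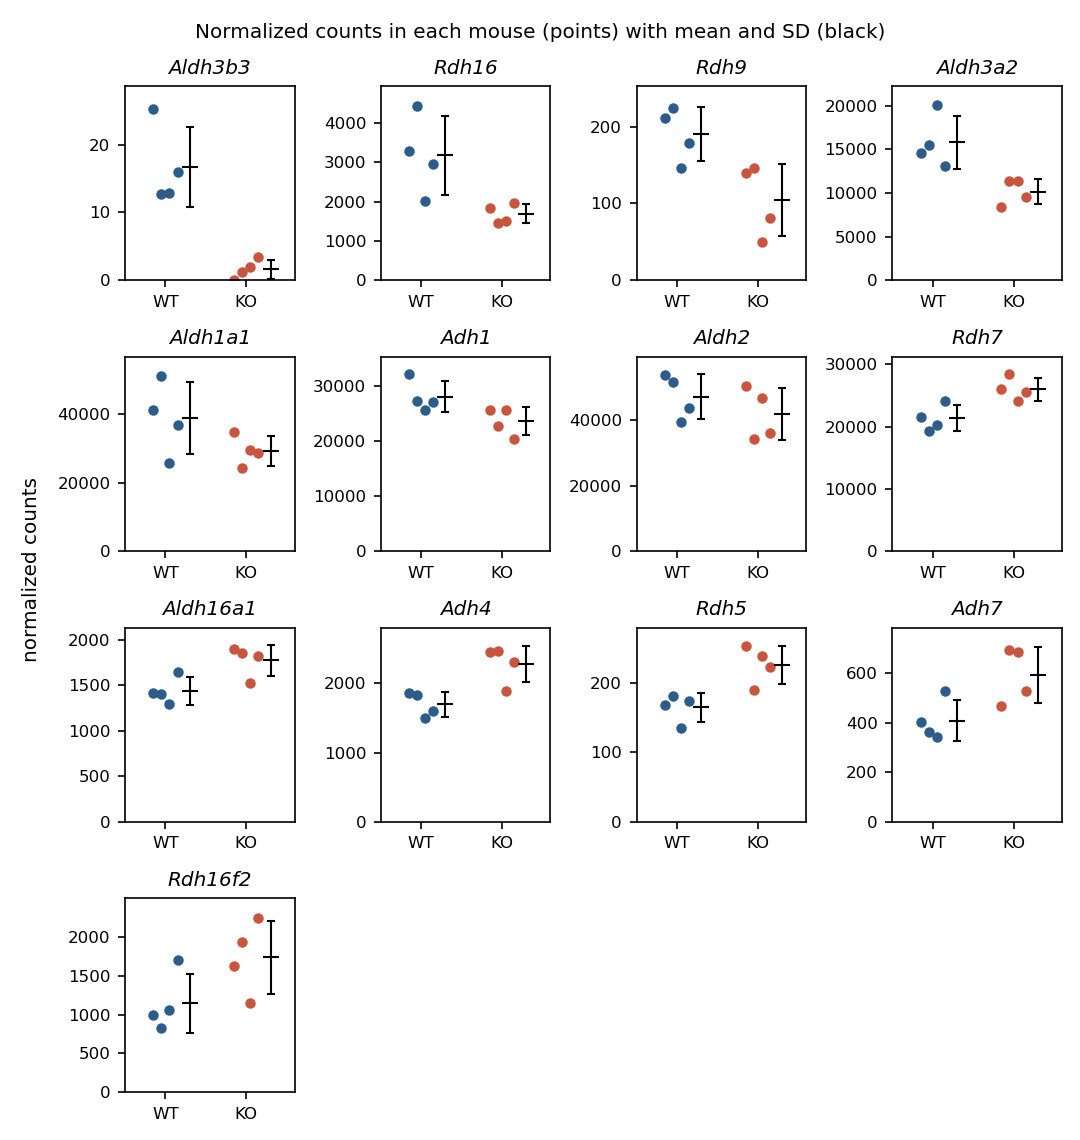
Normalized counts in each mouse (points, WT blue, MøFoxO1-KO red) with mean and SD over 4 mice (black), for the 13 members with an unadjusted P under 0.05, groups that did not overlap or 1 of the 5 highest levels, ordered by fold change. Aldh3b3 lies between 12.8 and 25.3 in WT littermates and at or below 3.36 in MøFoxO1-KO mice, and Rdh16, Rdh9, Aldh3a2 and Adh1 are lower, and Adh4 and Rdh5 higher, without overlap.

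Aldehyde dehydrogenases of amino acid and carnitine metabolism gave no difference at an unadjusted P under 0.05 in 7 tested genes. All 7 fold changes were negative under the main scaling, from -0.40 to -0.03 on the log2 scale with a median of -0.16, but those of Aldh4a1, Aldh6a1, Aldh7a1 and Aldh9a1 turned positive without WT replicate 23 and that of Aldh7a1 with upper-quartile factors. Aldh6a1, which acts in valine breakdown, had 7788 ± 2290.4 and 6770.2 ± 468 normalized counts in WT and MøFoxO1-KO mice (log2 fold change -0.20 ± 0.19). Aldh5a1, which clears the semialdehyde of GABA, had 1019 ± 260.1 and 777 ± 165 (log2 fold change -0.39 ± 0.20, edgeR adjusted P = 0.364, exact permutation P = 0.171). Aldh8a1, of tryptophan breakdown, had a log2 fold change of -0.16 ± 0.15, and Aldh4a1, of proline breakdown, which shares 32.5% of its exon bases with an unnamed gene model on the same strand, had -0.09 ± 0.17. Aldh7a1, of lysine breakdown, had -0.03 ± 0.19, Aldh9a1, of carnitine synthesis, -0.04 ± 0.20, and Aldh18a1, which starts proline synthesis, -0.40 ± 0.44.

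The folate enzymes Aldh1l1 and Aldh1l2 oxidize 10-formyltetrahydrofolate in cytosol and mitochondria. Aldh1l1 had 9898 ± 5366 and 8959 ± 2373 normalized counts in WT and MøFoxO1-KO mice (log2 fold change -0.14 ± 0.36), and Aldh1l2 had 27.6 ± 19.3 and 12.6 ± 6.57 (log2 fold change -1.13 ± 0.56, edgeR adjusted P = 0.346, exact permutation P = 0.171). Aldh16a1 (ENSMUSG00000007833, chromosome 7, 45140684 to 45154584), which in mammals lacks the catalytic residue of the family, was the 1 Aldh gene that was higher at an unadjusted P under 0.05. Normalized counts of Aldh16a1 were 1414, 1398, 1288 and 1649 in WT littermates and 1899.9, 1849, 1524 and 1822 in MøFoxO1-KO mice. WT replicate 25 lay above MøFoxO1-KO replicate 28, and the log2 fold change was 0.30 ± 0.12 (edgeR adjusted P = 0.253, exact permutation P = 0.0571). Per length its level was 33.5 ± 1.67 TPM in WT littermates and 33.5 ± 3.02 in MøFoxO1-KO mice, so no difference was seen on that scale.

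Of the Dhrs genes, 8 of 11 were tested and none had an unadjusted P under 0.05, with 4 positive and 4 negative fold changes and a median of -0.001 on the log2 scale, while Dhrs7b and Dhrs13 turned negative under total counts and Dhrs1 positive with upper-quartile factors. Dhrs3, which reduces retinaldehyde back to retinol, had 2669 ± 459.5 and 3133 ± 316 normalized counts in WT and MøFoxO1-KO mice (log2 fold change 0.23 ± 0.15). Dhrs9, a retinol and steroid dehydrogenase shown by mouse after its values were seen, had 21, 28, 42 and 7 counts in WT littermates and 5, 19, 0 and 4 in MøFoxO1-KO mice. Its log2 fold change of -1.58 ± 0.84 was the second largest of the set in size, with overlapping groups (edgeR adjusted P = 0.379, exact permutation P = 0.143). Dhrs4, a peroxisomal carbonyl reductase and the most abundant of the group, had a log2 fold change of -0.06 ± 0.11. Dhrs1, Dhrs7, Dhrs7b, Dhrs11 and Dhrs13 had -0.02 ± 0.15, -0.16 ± 0.15, 0.02 ± 0.18, 0.20 ± 0.16 and 0.13 ± 0.28, and Dhrs13 shares 19.6% of its exon bases with the opposite strand gene Dhrs13os.

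Genes that handle retinoids outside the family were read from the same fit. Of 23 listed, 18 were tested, and 3 were higher and 1 was lower at an unadjusted P under 0.05 (against 8.65% and 8.06% of all genes). None of them had an edgeR adjusted P under 0.05. Pnpla2, the adipose triglyceride lipase that also hydrolyzes retinyl esters, was at 2119 ± 204 normalized counts in WT littermates and 1694 ± 102 in MøFoxO1-KO mice, without overlap (log2 fold change -0.32 ± 0.11, edgeR adjusted P = 0.212, exact permutation P = 0.0286). Rxrb, a retinoid X receptor, was at 522 ± 13.4 and 615 ± 53.8, also without overlap (log2 fold change 0.24 ± 0.10, edgeR adjusted P = 0.272, exact permutation P = 0.0286). Rbp4, the plasma retinol-binding protein, was named after its values were seen and had overlapping groups, with a log2 fold change of 0.42 ± 0.17 (edgeR adjusted P = 0.265, exact permutation P = 0.0571). The median of the 18 was 0.01 on the log2 scale, and the 5 that were not tested were Rbp2, Stra6, Crabp1, Crabp2 and Cyp26c1.

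Among 22 other genes of ethanol and aldehyde metabolism, 21 were tested. Of these, 2 were higher and 3 lower at an unadjusted P under 0.05 (against 8.65% and 8.06% of all genes). None had an edgeR adjusted P under 0.05. Cbr1, a cytosolic carbonyl reductase of quinones and lipid aldehydes, came nearest. Normalized counts of Cbr1 were 1570.0, 1541, 2596 and 1844 in WT littermates and 906, 1061, 850.3 and 1206 in MøFoxO1-KO mice. The MøFoxO1-KO mice were all below the WT littermates, and Cbr1 was 46.7% lower (log2 fold change -0.91 ± 0.19, edgeR adjusted P = 0.0968, exact permutation P = 0.0286, DESeq2 adjusted P = 0.00122). Akr1b3, the aldose reductase, and Akr7a5, an aflatoxin aldehyde reductase, were higher without overlap, with log2 fold changes of 0.69 ± 0.23 and 0.32 ± 0.12 (edgeR adjusted P = 0.193 and 0.242). Cbr3, a neighbour of Cbr1, and Aox1, an aldehyde oxidase, were named after their values were seen and had overlapping groups. Their log2 fold changes were -1.76 ± 0.48 and -0.38 ± 0.14 (edgeR adjusted P = 0.142 and 0.216, DESeq2 adjusted P = 0.0145 and 0.118). The 4 genes of ethanol oxidation and acetate use, Cyp2e1, Cat, Acss1 and Acss2, had no unadjusted P under 0.05, with fold changes from -0.30 to 0.34 on the log2 scale.

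The partners of the amino acid and carnitine enzymes gave 2 higher and 1 lower of 19 tested genes at an unadjusted P under 0.05 (against 8.65% and 8.06% of all genes). None had an edgeR adjusted P under 0.05, and the median was 0.02 on the log2 scale. Acmsd, which takes an intermediate of tryptophan breakdown toward the substrate of Aldh8a1, was at 55.5 ± 9.84 normalized counts in WT littermates and 88.7 ± 23.05 in MøFoxO1-KO mice, without overlap (log2 fold change 0.67 ± 0.25, edgeR adjusted P = 0.223, exact permutation P = 0.0286). Prodh2, of hydroxyproline breakdown, and Bckdhb, a subunit of the branched-chain ketoacid dehydrogenase, were named after their values were seen and had overlapping groups, with log2 fold changes of 0.40 ± 0.18 and -0.43 ± 0.16 (edgeR adjusted P = 0.288 and 0.226).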

How the data were processed

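Polyadenylated RNA of whole liver was sequenced from 8 mice, 4 per genotype, and the authors deposited unnormalized read counts of each gene in 1 table, in the featureCounts layout with Ensembl gene IDs, GRCm38 coordinates and summed exon lengths. The submitters' processing notes name STAR, featureCounts and mm10. Versions, strand setting and the rule for reads matching more than 1 gene are not given in the sources used here. Near-identical genes may therefore exchange reads, and reads in exons shared by overlapping genes may be missing from the counts. All 8 count columns were mapped to mice by their names. Nothing in the sources says how the mice shared litters or batches.

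Symbols came from GENCODE M21 (46005 of 46517 genes). The members and lists were chosen with earlier results of these data known. Genes were filtered with filterByExpr (minimum count 10, minimum total 15), scaled by TMM and compared in edgeR 4.0.16 (R 4.3.3) by its quasi-likelihood test, with Benjamini-Hochberg adjustment over all 13278 tested genes and no covariates. The common biological coefficient of variation was 0.256. Normalized counts are counts divided by the TMM-scaled library size relative to its mean, TPM used the deposited lengths, and exact two-sided permutation tests used normalized counts. Values are given by mouse for genes with an unadjusted P under 0.05 or groups that did not overlap and for the 5 highest levels, and for Aldh1b1 and Dhrs9 after their values were seen. Genes of the pathway lists were named at an adjusted P under 0.05, or at an unadjusted P under 0.05 with groups that did not overlap. For groups without overlap the exact permutation P is 0.0286 in every case, so it adds nothing to the lack of overlap. Of the listed genes, 1 had no row in the table. A further listed gene is not reported here by name. Promoters came from RefSeq (40 of 52 genes matched), and shared 50-base windows from GENCODE M21 transcripts on the forward strand.

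Alternatives were DESeq2 1.42.0, its size factors, upper-quartile factors, no filter, a minimum of 10 counts per mouse, limma-voom (limma 3.58.1), the robust edgeR fit, 1 surrogate variable from sva 3.50.0, a loess offset for gene length and leaving out each mouse. Scaling by total counts was added after seeing the data. The fits were also run on simulated data in which all genes had the same dispersion and the changes were larger than most seen here. That run does not show how the fits act on small fold changes. Total counts of 15253218 to 18025481 per mouse limit the precision for genes with few counts.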

Additional observations from a re-analysis of the deposited data

Results flagged for a closer look

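In 2 of 78 groups of 4 mice, 1 WT littermate stood apart from the other 3 by Dixon's criterion, which chance meets in about 1 in 20 groups, and in both it was replicate 23. Aldh1a7 had 5528 normalized counts in WT replicate 23, beside 1834 to 2332 in the other 3 WT littermates. Aldh9a1, of carnitine synthesis, had 6164 normalized counts in WT replicate 23, beside 3601 to 3932 in the others. Neither gene differed between genotypes at an unadjusted P under 0.05, and without this mouse their log2 fold changes were 0.04 for Aldh1a7 and 0.17 for Aldh9a1.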

How the results depend on the processing

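No paired analysis was possible because the sources do not say which mice shared a litter. The replicate numbers of WT littermates (22 to 25) and MøFoxO1-KO mice (26 to 29) name no pairs. Past both thresholds there was 1 gene with DESeq2 and 1 with no filter on low counts, Aldh3b3 in each case, and 4 and 2 genes had an adjusted P under 0.05 under those settings. At an unadjusted P under 0.05, 9 genes were lower with no filter (18.4%, against 5.78% of all genes) and 9 with total counts (23.1%, against 18.7%). Higher were 3 with the length offset (7.69%, against 7.15%) and 1 with total counts (2.56%, against 3.33%). The 9 with no filter include genes near the floor. Aldh3b2 and Dhrs13os had no count in MøFoxO1-KO mice and at most 4 and 3 in a WT littermate, and Aldh3b3 had at most 3 counts in a MøFoxO1-KO mouse. Groups did not overlap for 3 genes with the length offset, a setting for which the share over all genes is not given here. The median log2 fold change was 0.0015 with 1 surrogate variable, -0.30 with total counts and 0.0018 without WT replicate 23. Leaving out 1 mouse gave 0 to 0 genes past the thresholds or at an adjusted P under 0.05. It gave 3 to 7 higher (7.5 to 17.5%, against 5.67 to 9.35% of all genes) and 4 to 7 lower (10.0 to 17.9%, against 5.02 to 8.3%). Groups did not overlap for 5 to 9 genes, and medians were -0.23 to 0.0018. Groups of 3 and 4 mice separate more easily than 4 and 4, so these counts without overlap do not compare with the main one. Their share over all genes is not given here. Fold changes of single genes under an alternative were counted for the tested dehydrogenases together with the named list and marker genes. Of these 860, 797 kept their direction and their side of the threshold, 16 passed it, 7 no longer passed it and 40 changed sign. No dehydrogenase had an edgeR adjusted P under 0.05 in the main fit, so the 7 are those of the marker Serpina1c, the only one of these genes that had. The cause was not tested.

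Sign changes were all in genes with an edgeR P over 0.05. With 1 surrogate variable, log2 fold changes became 0.093 for Aldh4a1, 0.059 for Aldh6a1, 0.21 for Aldh7a1, 0.0015 for Aldh8a1, 0.22 for Aldh9a1, 0.13 for Aldh1a7, -0.053 for Aldh3b1, 0.42 for Aldh1l1, 0.51 for Aldh1b1, 0.024 for Dhrs1 and -0.14 for Dhrs13. With total counts they became -0.062 for Adh5, -0.10 for Aldh3b1, -0.047 for Dhrs13 and -0.13 for Dhrs7b. Upper-quartile factors gave 0.0031 for Aldh7a1 and 0.0030 for Dhrs1, and the length offset gave 0.038 for Aldh7a1 and -0.048 for Aldh3b1. Leaving out 1 mouse moved the log2 fold change across 0, with a range of -0.24 to 0.027 for Aldh4a1, -0.34 to 0.0014 for Aldh6a1, -0.15 to 0.14 for Aldh7a1, -0.17 to 0.17 for Aldh9a1, -0.66 to 0.042 for Aldh1a7, -0.27 to 0.26 for Aldh3b1, -0.41 to 0.25 for Aldh1l1, -1.33 to 0.19 for Aldh1b1, -0.14 to 0.091 for Dhrs1, -0.080 to 0.31 for Dhrs13 and -0.13 to 0.13 for Dhrs7b. Without WT replicate 23 the sign changed for Aldh4a1, Aldh6a1, Aldh7a1, Aldh9a1, Aldh1a7, Aldh1l1 and Aldh1b1. Genes with few counts, Aldh3b3 and Dhrs9 among them, are limited by depth.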
